A study of Mus musculus with 8 samples.

Results

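The 10 genes described here form the core of the NF-kB pathway as it is read from RNA. They are listed by symbol: the canonical subunits Rela, Nfkb1 and Rel, the non-canonical subunits Relb and Nfkb2, the inhibitors Nfkbia, Nfkbie, Nfkbiz and Tnfaip3, and the TNF-induced gene Tnfaip2. All 10 were found among the 24369 gene symbols of the count table, and all 10 were among the 11394 genes with enough counts to test. The cells, by their titles, were conventional dendritic cells (cDC) sorted from tumours of MC38-EGFP, a mouse colon carcinoma line carrying green fluorescent protein, so that EGFP+ dendritic cells hold tumour-derived fluorescence and EGFP- cells do not. The 4 groups were cDC1 EGFP-, cDC1 EGFP+, cDC2 EGFP- and cDC2 EGFP+, with 2 libraries each, all from mice of wild-type genotype. The labels' cell type entry, in contrast, names colon cancer for every sample. Strain, age and treatment are not given in the labels, although the series title names sitagliptin, a DPP4 inhibitor. The labels do not say that replicates came from separate animals, and p-values therefore measure only how far these samples spread, which may be technical.

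In resting cells the canonical dimers of RelA or c-Rel with p50, the product of Nfkb1, are held in the cytoplasm by IkB proteins. Signals through Toll-like or TNF receptors lead the IKK complex to destroy IkB, and the freed dimers switch on genes that include the inhibitors themselves, which closes a feedback loop. In the slower non-canonical route the kinase NIK, encoded by Map3k14, triggers processing of p100, the product of Nfkb2, and releases RelB, a subunit known for its part in dendritic cell development and maturation.

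Across the 8 libraries the inhibitors, Tnfaip2 and the non-canonical subunits spanned wider ranges than the canonical subunits. Of the members, 1 of 10 passed the test at an adjusted p under 0.05 in any of 7 comparisons: Tnfaip2 was 3.98-fold lower in cDC1 than in cDC2 over both EGFP fractions, where 1.32% of all genes passed. Within cDC1, 7 of 10 members stood higher in EGFP+ than in EGFP- libraries with no overlap, as 11.5% of all genes did. These ranged from 1.58-fold for Rela to 9.00-fold for Relb, with Relb, Nfkbia, Nfkbie and Tnfaip3 at 3.99-fold or more. With edgeR none of the members passed after adjustment over all genes, and neither did any other gene (0% of 11394). Nfkb1 lay the other way, and in cDC2 the members had no common direction.

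The libraries held 17869441 to 22195681 counts, of which the ribosomal RNA precursor Rn45s took 19.4% to 35.6%. Levels are given as CPM, in which each library's counts are brought to the same total and the TMM method evens out differences in RNA composition. The replicates of cDC1 EGFP+ agreed least, with a Pearson correlation of 0.629 over log2(CPM + 1) of the tested genes against 0.85 to 0.898 in the other groups, and 8553 and 8208 genes were detected in them against 9602 to 11922 elsewhere. The 10 cDC1 markers summed to 3420 to 7668 CPM in cDC1 and 379 to 923 CPM in the libraries labelled cDC2. The 9 cDC2 markers summed to 705 to 925.5 CPM in cDC2 and 48.4 to 403 CPM in cDC1. Most of the cDC2 sums came from Sirpa (170.5 to 338 CPM) and Itgam (253 to 398 CPM). Mgl2 was highest in cDC1 EGFP- replicate 2, at 220 CPM against 27.85 to 149 CPM in cDC2. Of the 8 tested, 0 passed in cDC1 against cDC2 over both fractions, where 1.32% of all genes passed, and 2 had values higher in cDC1. Of 8 markers shared by both subsets, Flt3 (0 to 10.8 CPM) and Zbtb46 (0 to 1.04 CPM) were at or near 0 in cDC2, whereas Itgax (51.9 to 82.6 CPM) and the MHC class II gene H2-Aa (3070 to 8562 CPM) were present. In the same libraries 16 macrophage and monocyte markers summed to 28600 to 57370 CPM against 478 to 13300 CPM in cDC1, so cDC2 below names the gate as labelled. In cDC1 EGFP+, replicate 1 had 807 CPM of 11 tumour epithelial and stromal markers against 10.6 to 181 CPM in the other 7 libraries. Of this, the matrix genes Sparc, Col3a1 and Col1a2 made up 674, 90.8 and 40.7 CPM, and the epithelial markers Krt8, Krt18, Epcam and Cldn4 were at 0. The other stromal markers of the list were not raised: Col1a1 was at 1.225 CPM, and Dcn, Postn and Pecam1 were at 0. Replicate 2 of that group had 6195 CPM of 10 markers of mature regulatory dendritic cells against 259 to 787 CPM elsewhere, and 13300 CPM of macrophage and monocyte markers against 478 CPM in replicate 1. Ccr7 alone made up 5498 of the 6195 CPM. Ccl22, Cd200, Cacnb3 and Samsn1 were also highest in that library. Fscn1 (21.3 against 78.5 CPM) and Cd63 (110 against 286 CPM) were lower there than in replicate 1, and Tbc1d4 and Socs2 were not highest there. Of 10 T, NK and B cell markers, 7 to 10 were at 0 in each library, and their sum was 0 to 42.7 CPM, nearly all Cd8a where it was highest. In bulk libraries such as these, fewer cells of a type and less RNA per cell cannot be told apart.

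Promoter sequence was available for 7 of the 10 members from RefSeq (GRCm38.p6 build): Rela, Rel, Nfkb2, Nfkbia, Nfkbie, Tnfaip3 and Tnfaip2. Nfkb1, Relb and Nfkbiz were not matched. The 250 bases before each start were searched on both strands for the kappa-B consensus of 10 bases, the site recognised by NF-kB dimers, counting overlapping matches. A match stood in 8 of 10 member windows (80%) and in at least 1 window of 6 of the 7 genes (85.7%). Of all 32851 windows 7.25% held a match, and of the 17124 genes of the count table with a window 9.19% did. Rela had none in its window. The stretches are shown because members that respond to NF-kB and members that encode it carry the same kind of element close to the start; each reads 5′ to 3′ on the gene's strand, and the capitals mark the match or, for Rel and Nfkb2, the pair of matches offset by 1 base. They lie upstream of Nfkbia (the 250 bases chr12:55492648-55492897, minus strand), Rel (chr11:23771032-23771081, minus), Nfkb2 (chr19:46304689-46304718, plus), Nfkbie (chr17:45555574-45555623, plus), Tnfaip3 (chr10:19015411-19015442, minus) and Tnfaip2 (chr12:111442628-111442657, plus). The GENCODE M21 annotation places those of Nfkb2 and Tnfaip2 within an annotated exon and the rest outside exons.
Nfkbia: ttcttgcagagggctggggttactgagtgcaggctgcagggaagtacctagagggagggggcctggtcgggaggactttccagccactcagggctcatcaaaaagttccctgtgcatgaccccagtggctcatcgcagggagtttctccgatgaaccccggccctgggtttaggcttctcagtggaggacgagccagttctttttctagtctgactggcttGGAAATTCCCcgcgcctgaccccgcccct
Rel: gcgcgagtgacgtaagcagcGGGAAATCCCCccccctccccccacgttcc
Nfkb2: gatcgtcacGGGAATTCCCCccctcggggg
Nfkbie: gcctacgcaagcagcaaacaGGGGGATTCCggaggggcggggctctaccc
Tnfaip3: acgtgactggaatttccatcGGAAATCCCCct
Tnfaip2: actattttaGGAGGGCCCCtccagggtcgg
Counted from the start, the matches began at -29 in Nfkbia, -92 and -91 in Rel, -39 and -38 in Nfkb2, -106 in Nfkbie, -12 in Tnfaip3 and -24 in Tnfaip2. A further match stood at -11 in Nfkb2 and at -125 in Tnfaip3. These are matches of letters, and binding was not measured.

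**Figure D1:**
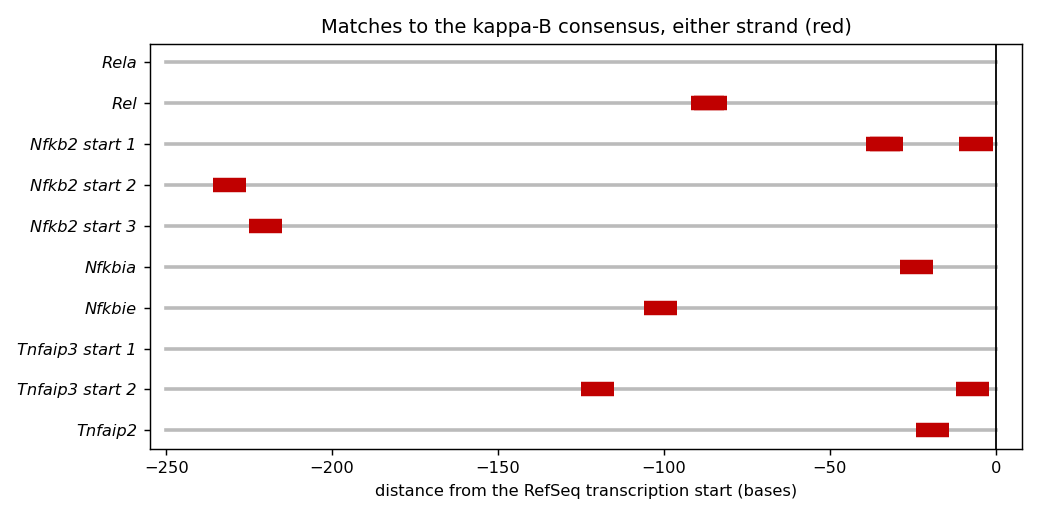
Position of kappa-B consensus matches (red) in the 250 bases before each RefSeq transcription start (vertical line at 0), in bases, 1 row per start of the 7 members with a window. Rela and the first Tnfaip3 start have no match; matches begin at -29 in Nfkbia, -24 in Tnfaip2, -12 in Tnfaip3 and -11 in Nfkb2, and farther away, at -236 and -225, before the other Nfkb2 starts.

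Among the canonical subunits, Rela (chr19:5637483-5648130, plus strand), the main transactivating subunit, spanned the narrowest range of the 10, from 28.7 to 76.5 CPM. It measured 44.3 and 37.9 CPM in cDC1 EGFP-, 76.5 and 53.2 in cDC1 EGFP+, 52.3 and 60.5 in cDC2 EGFP- and 45.6 and 28.7 in cDC2 EGFP+. EGFP+ stood above EGFP- in cDC1 and below it in cDC2, without overlap in either subset. Neither difference passed the test: the log2 fold change was 0.66 ± 0.44 (SE) in cDC1 (adjusted p = 0.514) and -0.60 ± 0.44 in cDC2 (adjusted p = 1).

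Nfkb1 (chr3:135584655-135691547, minus strand) encodes p105, the precursor of p50, whose homodimers can also repress. It measured 82.6 and 39.9 CPM in cDC1 EGFP-, 19.2 and 22.7 in cDC1 EGFP+, 39.7 and 36.1 in cDC2 EGFP- and 48.4 and 53.7 in cDC2 EGFP+. The lowest 2 values of the 8 were those of cDC1 EGFP+, and Nfkb1 was the only member below EGFP- in both EGFP+ cDC1 libraries. The log2 fold change of EGFP+ over EGFP- was -1.55 ± 0.50 in cDC1 (adjusted p = 0.296) and 0.43 ± 0.49 in cDC2 (adjusted p = 1), and the interaction, the difference between these, was -1.98 ± 0.70 (adjusted p = 0.428).

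Rel (chr11:23736847-23770970, minus strand), which encodes c-Rel, a subunit used for cytokine genes such as Il12b, measured 55.9 and 80.4 CPM in cDC1 EGFP-, 33.8 and 117 in cDC1 EGFP+, 34.3 and 61.9 in cDC2 EGFP- and 38.0 and 44.0 in cDC2 EGFP+. The replicates of cDC1 EGFP+ spanned the lowest and the highest of all 8 values, and every pair of groups overlapped except cDC1 EGFP- and cDC2 EGFP+. The largest of its differences within a fraction or subset was 0.88 ± 0.63 on the log2 scale, for cDC1 over cDC2 among EGFP+ cells (adjusted p = 0.513).

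Of the non-canonical subunits, Relb (chr7:19606217-19629438, minus strand) differed most between groups. It measured 17.1 and 17.3 CPM in cDC1 EGFP-, 79.2 and 231 in cDC1 EGFP+, 18.1 and 31.8 in cDC2 EGFP- and 12.7 and 15.8 in cDC2 EGFP+. Both cDC1 EGFP+ libraries were above all 6 others, whose values stayed within 12.7 to 31.8 CPM. EGFP+ cDC1 exceeded EGFP- cDC1 by 3.17 ± 0.63 on the log2 scale, or 9.00-fold (adjusted p = 0.15), and EGFP+ cDC2 by 3.44 ± 0.64, or 10.9-fold (adjusted p = 0.0805). In cDC2 the EGFP+ libraries lay below the EGFP- libraries, by -0.81 ± 0.59 (adjusted p = 1), and the interaction was 3.98 ± 0.85 (adjusted p = 0.302). The 2 comparisons that gave the large values share the cDC1 EGFP+ libraries. Relb was highest in replicate 2, the library with 6195 CPM of mature regulatory dendritic cell markers, of which Ccr7 made up 5498 CPM. Replicate 1, at 787 CPM of those markers, still held 79.2 CPM of Relb. The part of mature regulatory cells in the result was not tested.

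Nfkb2 (chr19:46304320-46312385, plus strand), the gene of p100, measured 46.5 and 38.9 CPM in cDC1 EGFP-, 70.3 and 126 in cDC1 EGFP+, 23.3 and 49.99 in cDC2 EGFP- and 37.7 and 24.9 in cDC2 EGFP+. As with Relb, both cDC1 EGFP+ libraries were above the other 6, with replicate 2 the higher. The log2 fold change was 1.20 ± 0.55 for EGFP+ over EGFP- in cDC1 (adjusted p = 0.399) and 1.65 ± 0.55 for cDC1 over cDC2 among EGFP+ cells (adjusted p = 0.225). In cDC2 the EGFP fractions overlapped.

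**Figure D2:**
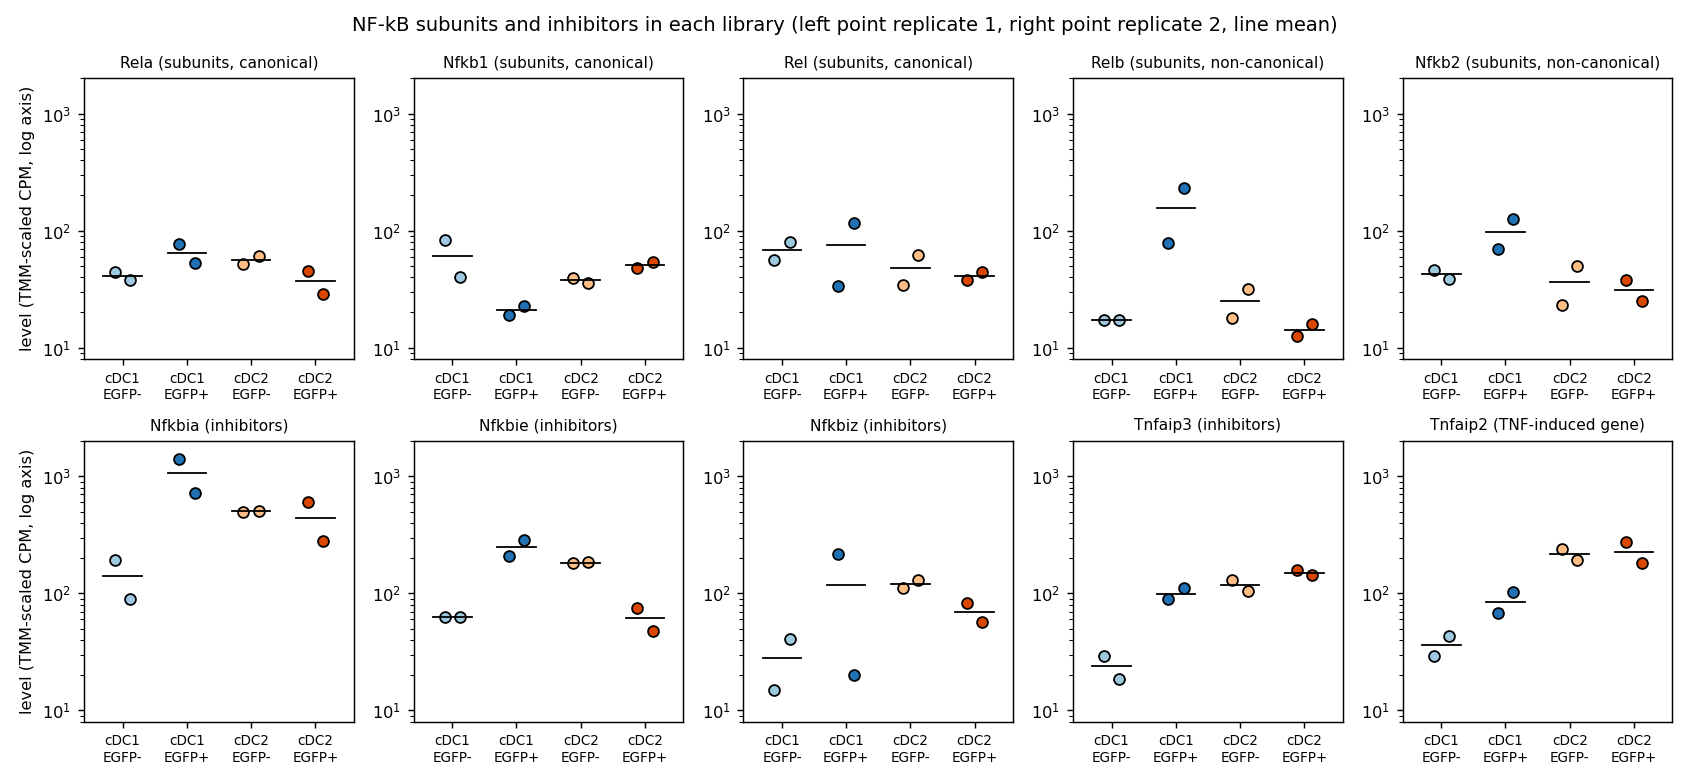
Levels of the 10 members (TMM-scaled CPM, log axis) in each of the 8 libraries; points are libraries, the left one of each pair being replicate 1, and the line is the mean of the group. Relb and Nfkb2 are highest in both cDC1 EGFP+ libraries, Nfkb1 is lowest there, and Tnfaip2 is lower in all 4 cDC1 libraries than in all 4 cDC2 libraries.

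Among the inhibitors, Nfkbia (chr12:55489410-55492647, minus strand), the gene of IkB-alpha and the classic early feedback target, was the most abundant. It measured 192 and 90.0 CPM in cDC1 EGFP-, 1399 and 726 in cDC1 EGFP+, 500.4 and 507 in cDC2 EGFP- and 604 and 281 in cDC2 EGFP+. The cDC1 EGFP- libraries were the lowest 2 and the cDC1 EGFP+ libraries the highest 2, and the cDC2 fractions overlapped each other between them. EGFP+ exceeded EGFP- in cDC1 by 2.91 ± 0.57 on the log2 scale, or 7.53-fold (adjusted p = 0.15), against -0.19 ± 0.53 in cDC2 (adjusted p = 1), with an interaction of 3.10 ± 0.76 (adjusted p = 0.332). Among EGFP- cells cDC1 lay below cDC2, by -1.84 ± 0.54 (adjusted p = 0.31).

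Nfkbie (chr17:45555703-45563169, plus strand) encodes IkB-epsilon, a slower inhibitor of canonical dimers, and its replicates agreed closely in the EGFP- groups but less so in the EGFP+ groups. It measured 62.5 and 62.3 CPM in cDC1 EGFP-, 211 and 287 in cDC1 EGFP+, 181 and 186 in cDC2 EGFP- and 75.1 and 47.3 in cDC2 EGFP+. Of the inhibitors it alone had EGFP+ above EGFP- in cDC1 and below it in cDC2 without overlap in either, and cDC1 EGFP- and cDC2 EGFP+ overlapped. The log2 fold change of EGFP+ over EGFP- was 1.995 ± 0.36 in cDC1 (adjusted p = 0.14) and -1.58 ± 0.35 in cDC2 (adjusted p = 1). The interaction, 3.58 ± 0.50, was the one of smallest p among the members (adjusted p = 0.154), with a range of adjusted p from 4.14e-08 to 0.856 over 15 alternatives, 4 of them past the threshold.

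Nfkbiz (chr16:55811375-55838899, minus strand) encodes the nuclear protein IkB-zeta, which binds p50 and can promote as well as restrain transcription. It measured 14.9 and 41.1 CPM in cDC1 EGFP-, 216 and 20.1 in cDC1 EGFP+, 111 and 130.3 in cDC2 EGFP- and 82.0 and 57.1 in cDC2 EGFP+. The cDC1 EGFP+ replicates were far apart, replicate 1 being the highest library of all and replicate 2 lying within the cDC1 EGFP- range. Its log2 fold change in cDC1 was 2.07 ± 0.99 (adjusted p = 0.406) and rests on replicate 1. That library had 674 CPM of Sparc but no epithelial marker and no Dcn, Postn or Pecam1. The part of stromal cells in the value was not tested. With all libraries the subsets overlapped over both fractions (log2 fold change -0.67 ± 0.89, edgeR adjusted p = 0.843). Without replicate 1, left out after its value was seen, cDC1 spanned 14.9 to 41.1 CPM and cDC2 57.1 to 130.3 CPM. How many of all genes separate likewise was not counted, so no result is drawn from this.

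Tnfaip3 (chr10:19000910-19015657, minus strand) encodes A20, a ubiquitin-editing enzyme that ends signalling upstream of IKK. It measured 29.3 and 18.6 CPM in cDC1 EGFP-, 89.0 and 110.3 in cDC1 EGFP+, 131 and 105 in cDC2 EGFP- and 157 and 144 in cDC2 EGFP+. The cDC1 EGFP- libraries were below all others, cDC1 EGFP+ and cDC2 EGFP- overlapped, and cDC2 EGFP+ was highest. EGFP+ exceeded EGFP- in cDC1 by 2.06 ± 0.37 on the log2 scale, or 4.16-fold (adjusted p = 0.14), and by 0.35 ± 0.36 in cDC2 (adjusted p = 1), with an interaction of 1.70 ± 0.51 (adjusted p = 0.411). Among EGFP- cells cDC1 lay 4.93-fold below cDC2 (log2 fold change -2.30 ± 0.38, adjusted p = 0.0691), and over both fractions 2.73-fold below (-1.45 ± 0.41, adjusted p = 0.16).

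Tnfaip2 (chr12:111442469-111455018, plus strand), an NF-kB and TNF target whose product takes part in forming membrane nanotubes, is not an inhibitor and was kept apart from them. It measured 29.4 and 43.4 CPM in cDC1 EGFP-, 68.5 and 102 in cDC1 EGFP+, 239 and 193 in cDC2 EGFP- and 274 and 180.3 in cDC2 EGFP+. All 4 cDC1 libraries were below all 4 cDC2 libraries, as for 8.56% of all genes, and within cDC1 both EGFP+ libraries were above both EGFP- libraries. The mean was 60.8 ± 31.8 CPM in cDC1 and 222 ± 43.1 CPM in cDC2 (SD, n = 4 libraries each). Tnfaip2 was lower in cDC1 by a log2 fold change of -1.99 ± 0.36 (adjusted p = 0.0331), while 0.5% of all genes passed in that direction. The value was negative on both sides of the EGFP gate, with -2.57 ± 0.41 among EGFP- cells (adjusted p = 0.0651) and -1.42 ± 0.39 among EGFP+ cells (adjusted p = 0.172), each short of the threshold. The call rests on few libraries: it was lost without any 1 of 5 libraries, namely either cDC1 EGFP- library (adjusted p = 0.121 and 0.13), either cDC2 EGFP- library (0.0808 and 0.0926) or cDC2 EGFP+ replicate 1 (0.119), and over 17 alternatives the adjusted p ranged from 0.000119 to 0.13, with 11 past the threshold. The call was also lost with the replicate number as a block, although no label says what that number marks. The 16 macrophage and monocyte markers, all above 0 in every cDC2 library, also summed higher in cDC2, at 28600 to 57370 CPM against 478 to 13300 CPM in cDC1. Within cDC1 the sum did not follow Tnfaip2. It was lowest, at 478 CPM, in EGFP+ replicate 1, where Tnfaip2 was above both EGFP- libraries, whose sums were 2215 and 3366 CPM. The part of these markers in the result was not tested.

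The members were then set against all genes. For EGFP+ over EGFP- in cDC1 the median log2 fold change of the 10 members was 1.61, beside -0.0376 over all 11394 genes. No member passed the adjusted threshold, as 0% of all genes did (edgeR), although 1452 genes (12.7%), 6 members among them, had an unadjusted p under 0.05 and DESeq2 called 1325 genes and 5 members. In the higher direction 5 of 10 members had an unadjusted p under 0.05 (4.35% of all genes) and 7 of 10 had no overlap (11.5% of all genes); in the lower direction Nfkb1 did both (8.39% and 24% of all genes). By role, 3 of 4 inhibitors, 1 of 2 non-canonical subunits, 0 of 3 canonical subunits and Tnfaip2 made up the 5, and the median was 2.07 for the inhibitors, 2.18 for the non-canonical subunits and 0.15 for the canonical subunits. The number that pass rests on the 2 libraries of cDC1 EGFP+: without replicate 1, 763 genes and 4 members passed (Nfkbia, Nfkbie, Relb and Tnfaip3), and without replicate 2, 1050 genes and 4 members passed (Nfkbia, Nfkbie, Nfkbiz and Tnfaip3), the lone library then being assumed to vary like the other groups. Summed immediate early genes, which cell handling can raise, were at 4269 and 6275 CPM in these libraries and 3728 to 6253 CPM in the other 6. Of the 23, 3 had an unadjusted p under 0.05 in the higher direction for EGFP in cDC1 (4.35% of all genes) and 0 in the lower (8.39%), and 7 were higher (11.5%) and 3 lower (24%) without overlap. The 3 were Egr1 (adjusted p = 0.193), Jun (0.285) and Klf4 (0.322), with log2 fold changes between 1.42 for Klf4 and 3.71 for Jun. Their part in the members' values was not tested. The shift was not confined to cDC1. For EGFP in cDC2, 5 of the 23 had an unadjusted p under 0.05 (edgeR) higher (1.1% of all genes) and 1 lower (1.54%). Without overlap, 13 were higher there (22.6%) and 6 lower (19.2%).

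For EGFP+ over EGFP- in cDC2 the members' median log2 fold change was -0.23, beside 0.0775 over all genes. Here too 0% of genes passed with edgeR (300 at an unadjusted p under 0.05, 110 with DESeq2), and Nfkbie alone of the members had an unadjusted p under 0.05, lower, as 1.54% of all genes did. EGFP+ libraries were lower without overlap for Rela, Relb, Nfkbie and Nfkbiz (19.2% of all genes) and higher for Nfkb1 and Tnfaip3 (22.6%). Rela, Relb and Nfkbie stood higher without overlap in EGFP+ cDC1 and lower without overlap in EGFP+ cDC2, which 2.68% of all genes did, and Nfkb1 did the reverse, as did 6.21% of all genes. In the interaction 0% of genes passed (1180 at an unadjusted p under 0.05, 714 with DESeq2). Relb, Nfkbia, Nfkbie and Tnfaip3 had an unadjusted p under 0.05 in the higher direction (3.19% of all genes) and Nfkb1 in the lower (7.17%). With either cDC1 EGFP+ replicate left out, genes did pass the interaction, Nfkbie among them in both fits. The lone library left in that group was then assumed to vary like the other groups, so this is not further support. Over 15 alternatives the interaction ranged from 3.02 to 4.56 for Relb, 3.29 to 4.11 for Nfkbie and 2.555 to 3.95 for Nfkbia. Over both subsets together, 0% of genes passed for EGFP (595, or 5.22%, at an unadjusted p under 0.05, 184 with DESeq2), and Tnfaip3 was the member of smallest p, with 1.20 ± 0.41 (adjusted p = 0.951).

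**Figure D3:**
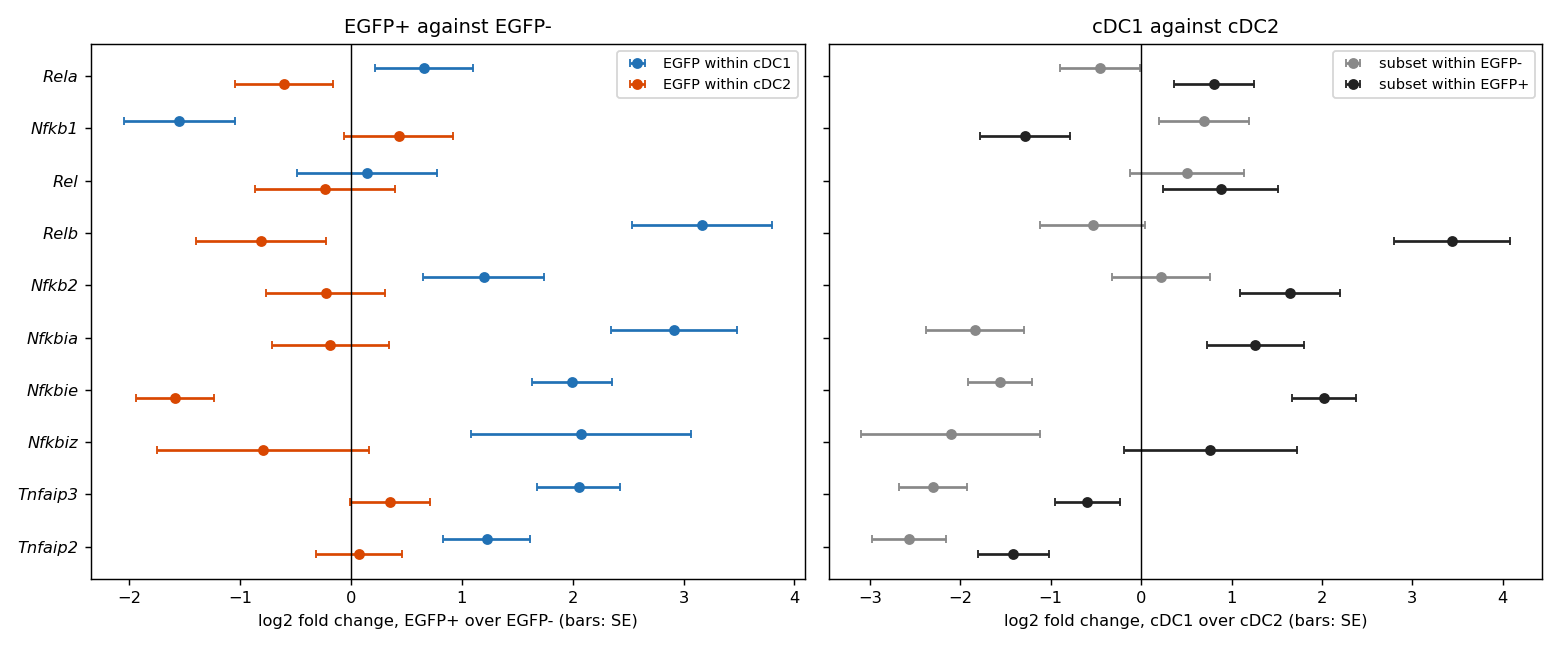
Log2 fold changes with their standard errors for each member, EGFP+ over EGFP- within each subset (left) and cDC1 over cDC2 within each EGFP fraction (right); zero is the vertical line. Relb, Nfkbia and Nfkbie lie to the right for EGFP in cDC1 (3.17, 2.91 and 1.995) and to the left or near zero in cDC2 (-0.81, -0.19 and -1.58).

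The subsets were compared within each EGFP fraction, and no member passed the interaction that tests whether the fractions differ. Among EGFP- cells, 41 genes (0.36%) and 0 members passed with edgeR, 7 of 10 members lay lower in cDC1 without overlap (26.5% of all genes) and 1 higher, Nfkb1 (21.9%), whose groups overlapped under RLE scaling. All 4 inhibitors were among the 7, with -1.97 as their median log2 fold change. Of the members 4 had an unadjusted p under 0.05, all lower (5.73% of all genes), and DESeq2 called 3 among 838 genes: Nfkbie, Tnfaip2 and Tnfaip3. Those 3 also passed without both cDC1 EGFP+ libraries, where 392 genes passed, and without either of them (465 and 413 genes). Among EGFP+ cells, 26 genes (0.228%) and 0 members passed, and Relb, Nfkb2, Nfkbia and Nfkbie had an unadjusted p under 0.05 in the direction of higher in cDC1, as 4.8% of all genes did. Nfkb1 and Tnfaip2 had one in the lower direction (11.1% of all genes). Without overlap, 5 members lay higher there (13.7% of all genes) and 3 lower, Nfkb1, Tnfaip3 and Tnfaip2 (33.2%). Nfkbie measured 2.02 ± 0.36 there (adjusted p = 0.0734), the reverse of its -1.56 ± 0.35 among EGFP- cells (adjusted p = 0.167), and DESeq2 called Relb, Nfkb2, Nfkbie and Tnfaip2 among 1586 genes. Relb and Nfkbie also passed with either cDC1 EGFP+ library left out. The lone library left in that group was then assumed to vary like the other groups, so this is not further support. From the compared libraries alone, 0 genes passed. Over 17 alternatives the log2 fold change ranged from 2.48 to 4.02 for Relb and from 1.73 to 2.52 for Nfkbie.

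Levels of different genes were compared per kilobase of transcript. Nfkbia had rank 1 of the 10 in every group, with a mean of 89.4 CPM per kb in cDC1 EGFP-, 673 in cDC1 EGFP+, 319 in cDC2 EGFP- and 281 in cDC2 EGFP+. Relb had rank 8 in cDC1 EGFP- at 7.79 CPM per kb and rank 3 in cDC1 EGFP+ at 70.1, while Nfkb1 had rank 4 at 14.9 and rank 10 at 5.09. Tnfaip3 was the lowest member in cDC1 EGFP- at 5.42 CPM per kb and had rank 3 in cDC2 EGFP+ at 34.1.

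The balance of inhibitors to subunits follows from these levels and is given without a test. The 4 inhibitors summed per kb were 2.39 and 1.79 times the 5 subunits in the cDC1 EGFP- libraries, 10.97 and 3.30 times in cDC1 EGFP+, 9.18 and 6.54 times in cDC2 EGFP- and 9.15 and 5.49 times in cDC2 EGFP+. Both cDC1 EGFP- libraries were below all others, and the cDC1 EGFP+ replicates spanned the cDC2 range. Nfkbia made up 58.4% to 84.6% of the inhibitor sum. Without it the ratio was 0.554 and 0.744 in cDC1 EGFP-, 1.70 and 0.819 in cDC1 EGFP+, 2.72 and 1.93 in cDC2 EGFP- and 1.70 and 1.49 in cDC2 EGFP+, so that cDC1 EGFP- stayed lowest.

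The non-canonical subunits summed to 0.514 and 0.587 of the canonical ones in cDC1 EGFP-, 1.56 and 3.54 in cDC1 EGFP+, 0.466 and 0.771 in cDC2 EGFP- and 0.528 and 0.511 in cDC2 EGFP+. Only the cDC1 EGFP+ libraries exceeded 1. The ratio of Relb to Rela was 1.27 and 5.33 there and 0.342 to 0.676 in the other 6 libraries, and that of Nfkb2 to Nfkb1, which encode the 2 precursor subunits, was 4.81 and 7.25 against 0.608 to 1.82. The canonical sum itself lay within 29.5 to 43.9 CPM per kb in the 8 libraries.

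**Figure D4:**
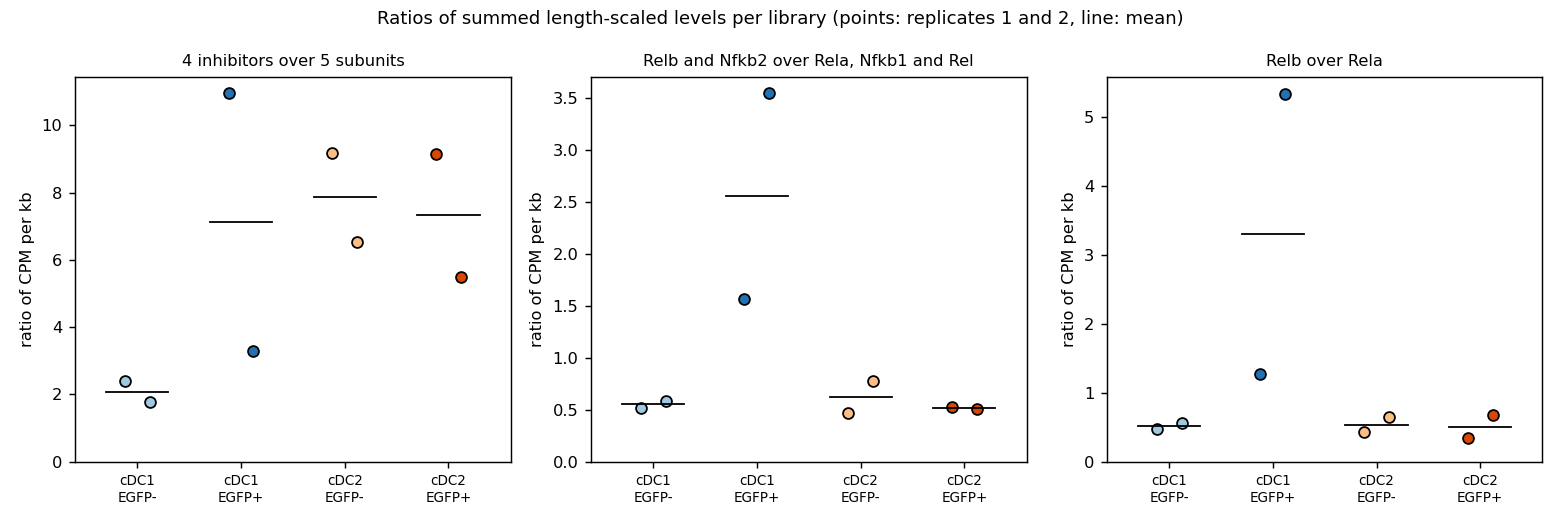
Ratios of summed levels (CPM per kb, linear axes from 0) in each library: 4 inhibitors over 5 subunits, non-canonical over canonical subunits, and Relb over Rela; points are replicates 1 and 2 and the line is their mean. The inhibitor ratio is lowest in cDC1 EGFP- (2.39 and 1.79), and both ratios of non-canonical subunits exceed 1 in cDC1 EGFP+ alone.

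Other genes of the pathway were read from lists by role. Of 12 genes of the IKK complex and its activating kinases, 1 passed higher (0.816% of all genes) and 1 lower (0.5%) in cDC1 against cDC2 over both fractions, with 0.02 as their median log2 fold change beside -0.285 over all genes. Map3k14, the gene of NIK, rose: it measured 12.5 and 47.5 CPM in cDC1 EGFP-, 108 and 142 in cDC1 EGFP+, 2.05 and 2.49 in cDC2 EGFP- and 2.76 and 1.49 in cDC2 EGFP+. All 4 cDC1 libraries were above all 4 cDC2 libraries, by 4.80 ± 0.71 on the log2 scale (adjusted p = 0.0131), and both cDC1 EGFP+ libraries, where Relb and Nfkb2 were also highest, were above both EGFP- ones (2.06 ± 0.71, adjusted p = 0.313). Ikbke, an IKK-related kinase of the interferon response, was lower in cDC1 (adjusted p = 0.0138), at 0 to 0.0466 CPM against 17.0 to 32.3 CPM in cDC2. The core kinase genes Chuk (4.34 to 63.0 CPM) and Ikbkb (21.3 to 87.3 CPM) overlapped between the subsets. For EGFP in cDC1, 1 of the 12 had an unadjusted p under 0.05 (edgeR) higher (4.35% of all genes) and 1 lower (8.39%). These were Map3k14 and Map3k7, and the list's median was -0.157. Map3k7 measured 2.48 and 3.73 CPM in cDC1 EGFP- and 0 in both cDC1 EGFP+ libraries.

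The remaining IkB and BCL3 family genes, 4 in number, included 0 that passed, with a median of 1.10. Nfkbib, the gene of IkB-beta, measured 67.4 and 123 CPM in cDC1 EGFP-, 156 and 242 in cDC1 EGFP+, 41.7 and 49.2 in cDC2 EGFP- and 35.3 and 39.3 in cDC2 EGFP+, above cDC2 in all 4 cDC1 libraries (log2 fold change 1.74 ± 0.39, adjusted p = 0.0733). Nfkbid, the gene of nuclear IkB-NS, resembled Nfkbia and Tnfaip3, but not Nfkbie and Nfkbiz, in being lowest in both cDC1 EGFP- libraries. It measured 9.35 and 12.4 CPM there against 31.9 to 59.3 CPM in the other 6 libraries. Bcl3, a nuclear partner of p50 and p52, measured 9.21 and 9.23 CPM in cDC1 EGFP-, 24.9 and 40.9 in cDC1 EGFP+ and 2.67 to 11.5 CPM in cDC2. For EGFP in cDC1, 2 of these 4 had an unadjusted p under 0.05 in the higher direction (4.35% of all genes), and the median was 1.45 beside -0.0376 over all genes.

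Of 15 tested upstream receptors, 1 passed higher in cDC1 (0.816% of all genes) and 0 lower (0.5%). It was Tlr3, a sensor of double-stranded RNA and itself a cDC1 marker, at 14.7 to 74.6 CPM against 2.92 to 7.71 CPM (3.31 ± 0.55, adjusted p = 0.022). The list's median was -0.69. Ltbr, the lymphotoxin beta receptor that feeds the non-canonical route, was picked after its values were seen: it measured 10.7 and 9.46 CPM in cDC1 EGFP-, 25.6 and 46.5 in cDC1 EGFP+ and 14.5 to 38.7 CPM in cDC2 (EGFP in cDC1 1.84 ± 0.70, adjusted p = 0.348). Of 22 adaptors and ubiquitin ligases 0 passed, with a median of -0.22. Traf1, an adaptor of TNF receptors and an NF-kB target, came nearest, at 125 to 457 CPM in cDC1 and 25.4 to 78.3 CPM in cDC2 (2.47 ± 0.56, adjusted p = 0.0759). Of 14 tested negative regulators other than the members, 0 passed, with a median of -0.10. For EGFP in cDC1 the medians were 0.807 for the receptors, -0.13 for the adaptors and ligases and -0.131 for these regulators. At an unadjusted p under 0.05 (edgeR), 2 receptors, 1 adaptor and 0 regulators were higher (4.35% of all genes). In the lower direction there were 0 receptors, 2 adaptors and 2 regulators (8.39%).

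Target genes were read likewise. Of 24 targets other than cytokines, 1 passed higher in cDC1 than in cDC2 (0.816% of all genes) and 0 lower (0.5%). It was Cd83, a surface marker of mature dendritic cells, at 785 to 1707 CPM in cDC1 and 143 to 308 CPM in cDC2, without overlap (2.52 ± 0.27, adjusted p = 0.00251). For EGFP in cDC1, 9 of the 24 had an unadjusted p under 0.05 in the higher direction (4.35% of all genes) and 0 in the lower (8.39%), 10 were higher without overlap (11.5%), and the median was 1.42 beside -0.0376 over all genes. Ier3, an early survival gene, was lowest in cDC1 EGFP- and highest in cDC2, with 83.2 and 34.4 CPM in cDC1 EGFP-, 466 and 166 in cDC1 EGFP+ and 609 to 998 CPM in cDC2 (EGFP in cDC1 2.42 ± 0.60, adjusted p = 0.204). Ccr7, the chemokine receptor that guides mature dendritic cells to lymph nodes, measured 277 and 70.8 CPM in cDC1 EGFP-, 368 and 5498 in cDC1 EGFP+ and 0.208 to 4.01 CPM in cDC2.

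Of 19 tested cytokine and chemokine targets, 0 passed higher in cDC1 (0.816% of all genes) and 1 lower (0.5%), with a median of -1.52. That was Cxcl3, a chemokine for neutrophils, at 0 to 0.746 CPM in cDC1 and 34.3 to 105 CPM in cDC2 (adjusted p = 0.0192). For EGFP in cDC1, 3 of 19 had an unadjusted p under 0.05 higher (4.35% of all genes) and 1 lower (8.39%), and single libraries carried the largest values. Cxcl1 and Il12b, picked after their values were seen, were at 1682 and 25.3 CPM in cDC1 EGFP+ replicate 1 and at 0.561 and 4651 CPM in replicate 2. High Cxcl1 was thus in the replicate with the higher Nfkbiz, and high Il12b in the replicate with the higher Rel, Relb and Ccr7, each in 1 library.

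**Figure D5:**
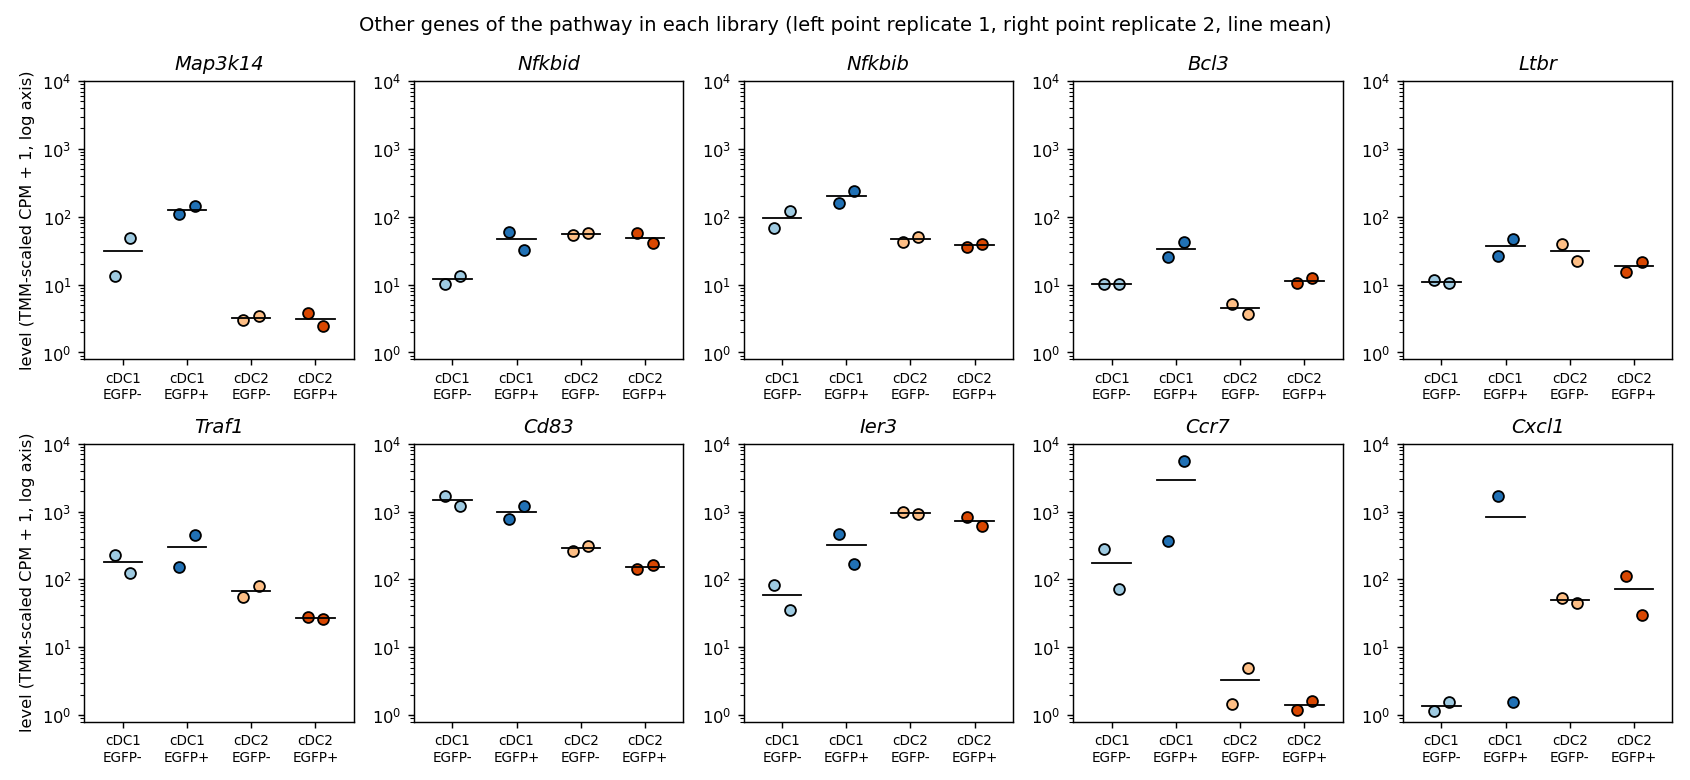
Levels of 10 other pathway genes (TMM-scaled CPM + 1, log axis) in each library; points are replicates 1 (left) and 2 (right) and the line is the mean of the group. Map3k14 and Cd83 are higher in all cDC1 than in all cDC2 libraries, whereas Cxcl1 is high in 1 cDC1 EGFP+ library (1682 CPM) and near 0 in the other; Ltbr and Cxcl1 were picked after their values were seen.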

How the data were processed

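The deposited table holds the authors' raw read counts, whole numbers per gene symbol for 8 libraries, whose columns were matched to samples by name. Trimmomatic 0.39, STAR 2.7.5c, Cufflinks 2.2.1 and the mm10 build appear in the submitters' processing notes. How reads were assigned to genes, and whether by strand, was not given in the sources used here; without strand, reads of Tnfaip2 and of the antisense gene Gm40578, which shares 150 bases with it, cannot be told apart.

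The tests ran on these counts in edgeR 4.0.16 under R 4.3.3 (filterByExpr, TMM scaling, robust quasi-likelihood test) over all 11394 genes left, with Benjamini-Hochberg adjustment and a threshold of 0.05. A model with 1 mean per group gave EGFP within each subset, subset within each fraction and the interaction, and an additive model gave both overall comparisons. The common dispersion was 1.28, so even differences of many fold could be missed. Standard errors are the log2 fold change divided by the square root of F. Lengths are of the GENCODE M21 transcript with the longest coding sequence.

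The members and all gene lists were chosen with earlier results of these data known. Members are given in every comparison; of each list, the text draws on up to 4 genes of smallest p in the overall subset comparison with a mean of at least 5 CPM, and for Chuk, Ikbkb, Ltbr, Cxcl1 and Il12b, on genes picked after their values were seen. Alternatives were DESeq2 1.42.0, voom in limma 3.58.1 with library quality weights, RLE scaling, other filters, smaller fits, a replicate block and leaving out libraries. The steps were tested on simulated data.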

Additional observations from a re-analysis of the deposited data

How the results depend on the processing

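Over 25 member results with an unadjusted p under 0.05, 409 values under other settings kept their direction in every case; 345 stayed on the same side of the threshold, 58 passed it newly and 6 fell short of it, all 6 being Tnfaip2 in the overall subset comparison. The 25 were picked by their p in these same libraries, so a kept direction was likely from the outset and is no further support. Tnfaip2 in the comparison of subsets over both fractions was the only one past the threshold at first, so no other could fall short. Counts of calls moved far more. In the overall subset comparison (150 genes, 93 higher and 57 lower, and 1 member) there were 1160 genes (396 higher, 764 lower) and 2 members with DESeq2, 846 (310 higher, 536 lower) and 2 with voom, 236 genes without a filter, 275 and 2 members from the mean of the 4-group contrasts, 392 and 3 without both cDC1 EGFP+ libraries, where the comparison reduces to EGFP- cells, and 50 (without cDC2 EGFP- replicate 2) to 277 genes (without cDC1 EGFP+ replicate 2) and 0 to 2 members leaving out 1 library. For EGFP over both subsets, 184 genes passed with DESeq2 and 4 with voom. For subset among EGFP- cells (41 genes, 0 members) there were 838 and 3 with DESeq2, 112 and 2 without a filter, 471 and 4 with voom, 292 and 3 from the compared libraries alone, 392 and 3 without both cDC1 EGFP+ libraries, and 1 to 465 genes and 0 to 3 members leaving out 1 library, the most without cDC1 EGFP+ replicate 1 and the fewest (1 to 4) without any 1 of the compared libraries. For subset among EGFP+ cells (26 genes, 0 members) there were 1586 (461 higher, 1125 lower) and 4 with DESeq2, 153 and 2 without a filter, 11 with voom, 0 from the compared libraries alone, and 1 to 1273 genes and 0 to 2 members leaving out 1 library, 1 without either cDC2 EGFP- library or cDC2 EGFP+ replicate 2 and 13 without cDC2 EGFP+ replicate 1. For EGFP in cDC1 (0 and 0) there were 1325 and 5 with DESeq2, 57 and 1 (Nfkbia) without a filter, and 0 to 1050 genes and 0 to 4 members leaving out 1 library. For EGFP in cDC2, DESeq2 gave 110 genes and 1 member (Nfkbie) and voom 2 genes. For the interaction, DESeq2 gave 714 and 4, no filter 29 and 1 (Nfkbie), and leaving out 1 library 0 to 668 genes and 0 to 3 members. The cause was not tested. RLE scaling moved the median over all genes from -0.305 to -0.198 in the subset comparison among EGFP+ cells and from -0.20 to -0.06 in the interaction.

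The titles carry a code that follows the replicate number in all 4 groups, but no label says whether it marks a mouse, a pool or a day. Deviations of same-numbered libraries from their group means correlated between -0.224 and 0.0408 over the 6 pairs of groups. With the replicate number as a block, 82 genes and 0 members passed in the overall subset comparison (Tnfaip2 adjusted p = 0.0755), 3 genes among EGFP- cells, and 0 among EGFP+ cells. With the numbers of the cDC2 EGFP+ libraries crossed, chosen after seeing the data, 3 genes passed among EGFP+ cells. Leaving out Rn45s or both cDC1 EGFP+ libraries was likewise added after seeing the data. With 2 libraries a group, the dispersion limits what can be detected.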

Other observations

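Genes whose level across the 8 libraries was most like that of a member were read by Pearson correlation of log2(CPM + 1) over genes with a mean of at least 10 CPM, as a description; the 8 points share libraries, depth and the 4 groups, and many genes follow the same groups. Rela was most like Vill (r = 0.972), Adprm (0.963) and Etfdh (0.944). Relb was most like Mapre2 (0.954), Mpzl2 (0.938) and Cd9 (0.927). Mpzl2 measured 15.8 and 67.2 CPM in cDC1 EGFP+ and at most 1.04 CPM in the other 6 libraries, and Mapre2 measured 81.7 and 213 CPM there against 15.2 to 46.6 CPM elsewhere.

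Nfkbia was most like Fam222b (0.975), Arhgef7 (0.948) and Rhbdf2 (0.947). Rhbdf2, the gene of a protein needed for release of TNF from the cell surface, measured 3.18 and 2.75 CPM in cDC1 EGFP-, 71.5 and 49.8 CPM in cDC1 EGFP+ and 18.6 to 28.0 CPM in cDC2. Tnfaip2 was most like Pon3 (0.979), Lamp1 (0.977) and Sertad1 (0.974). Lamp1, a lysosomal membrane protein gene, measured 82.0 to 265 CPM in cDC1 and 444.5 to 901 CPM in cDC2.

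Immediate early genes outside the NF-kB pathway gave 2 of 23 genes lower in cDC1 than in cDC2 over both fractions, beside 0.5% of all genes (edgeR, adjusted p = 0.0337 for Egr2 and 0.0197 for Klf4). Egr2 measured 19.4 to 42.4 CPM in cDC1 and 82.1 to 137 CPM in cDC2, and Klf4 measured 17.1 to 69.8 CPM and 85.6 to 237 CPM.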
